A study of Mus musculus with 6 samples.

Results

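Genes that bind or carry lipids, lipoproteins and cell debris were followed in differentiating mouse muscle cells with and without an edited *Hnrnpa2b1* gene. They are the class A scavenger receptors *Scara3* and *Scara5*, the class B scavenger receptors *Scarb1*, *Scarb2* and *Cd36*, and the secreted lipid carrier clusterin (*Clu*). The genes were picked by name, 6 of the 46078 genes listed in the count table, and were chosen by their difference between the genotypes, above all *Scara3* and *Scara5*. Their differences between genotypes are therefore given as a description, and no p-value is given for them. RNA came from C2C12 cells, an immortalised mouse myoblast line that withdraws from the cell cycle and fuses into myotubes when serum is withdrawn. KO cells were made with CRISPR-Cas9 and a guide against *Hnrnpa2b1*, which encodes an RNA-binding protein of the nucleus and cytoplasm, and WT cells kept the gene. Both genotypes were differentiated for 2 days by withdrawing serum and adding insulin, transferrin and selenium, and sequenced as 3 libraries each, KO1 to KO3 and WT1 to WT3. The methods describe independent clones of each genotype, isolated with cloning rings, but do not tie a clone to a library, so p-values measure only the spread between these libraries, and traits of a clone cannot be told apart from those of a genotype.

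Scavenger receptors are membrane proteins that take up modified lipoproteins, lipids, proteins and dying cells, and the family is grouped into classes by structure rather than by descent. Class A receptors span the membrane once and carry a collagen-like stalk. *Scara5* also binds ferritin and can deliver iron to cells, and *Scara3* is known for protecting cells from oxidative damage. Class B receptors span the membrane at both ends of a large outer loop. *Scarb1* takes cholesterol esters from high density lipoprotein, *Cd36* takes up long-chain fatty acids and is characteristic of oxidative muscle, and *Scarb2* sits in the lysosome membrane. Clusterin is a secreted chaperone found on lipoproteins and is taken up by receptors of the LDL receptor family.

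Between 33605258 and 40558740 reads were counted on genes per library. Values are given as CPM, the reads of a gene relative to a library total scaled with edgeR's TMM factors. They are also given as TPM, which corrects for transcript length and to which no TMM factors were applied. CPM and TPM can therefore order the libraries of a gene differently. RNA of the targeted gene did not separate the genotypes: *Hnrnpa2b1* stood at 159, 195 and 249 CPM in KO and at 225, 229 and 252 CPM in WT (log2 fold change −0.23, SE 0.18, adjusted p = 0.381, edgeR's quasi-likelihood test). Loss of the protein was assessed by the authors with antibodies, which is not analysed here. All 10 skeletal muscle markers examined were measured in both genotypes. Of 8 macrophage markers, 3 were tested and 1 was higher in KO (12.1% of all tested genes were higher and 10.6% lower), *Lyz2*, with 22 to 23 counts per KO library and 0 to 6 per WT library (log2 fold change 2.70, SE 0.71, adjusted p = 0.0323, edgeR's quasi-likelihood test), a call lost without KO2, KO3 or any WT library (highest adjusted p = 0.128). *Cd68*, which other cells also express, had 61 to 124 counts and did not pass (0.47, SE 0.29, adjusted p = 0.262), nor did *Itgam* (−0.07, SE 0.57, adjusted p = 0.941). *Ptprc*, *Adgre1* and *C1qa*, which define these cells, had at most 5, 2 and 2 counts in any library, and the 8 markers summed to 3.37 to 4.81 CPM in KO and 2.35 to 2.89 CPM in WT. Of 6 adipocyte markers only *Pparg*, which is also expressed outside fat, was tested, at 8.59 to 12.6 CPM in KO and 10.1 to 16.1 CPM in WT (−0.17, SE 0.24, adjusted p = 0.622), and the other 5, *Adipoq* and *Lep* among them, had at most 2 counts in any library. Of 6 endothelial markers 2 were tested and 1 was lower in KO (10.6% of all tested genes were), *Kdr* (−2.15, SE 0.59, adjusted p = 0.0363, lost without KO3 or any WT library, highest 0.128), and the 6 summed to 0.224 to 0.756 CPM in KO and 1.21 to 2.10 CPM in WT, lower in KO as *Scarb1* was, a part that was not tested. The 4 hepatocyte markers were not tested and summed to at most 0.0914 CPM in any library.

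Among the 6 genes the pattern was split. *Scara3*, *Scara5* and *Clu*, which lie close together on chromosome 14, were nearly silent in WT and clearly expressed in KO. The class B receptors *Scarb1*, *Scarb2* and *Cd36*, all on chromosome 5, had lower mean levels in KO. All 6 passed the filter on low counts, *Scara3*, *Scara5* and *Clu* only through their KO libraries. In the fit across 14828 genes, 5 of the 6 passed an adjusted p of 0.05, 3 of them higher in KO and 2 lower, where 22.7% of all tested genes passed, 12.1% higher and 10.6% lower. The 3 libraries of KO did not overlap the 3 of WT in 5 of the 6, as they did not in 44.3% of all tested genes. Because the genes were chosen by this contrast, nothing is read from these counts.

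**Figure D1:**
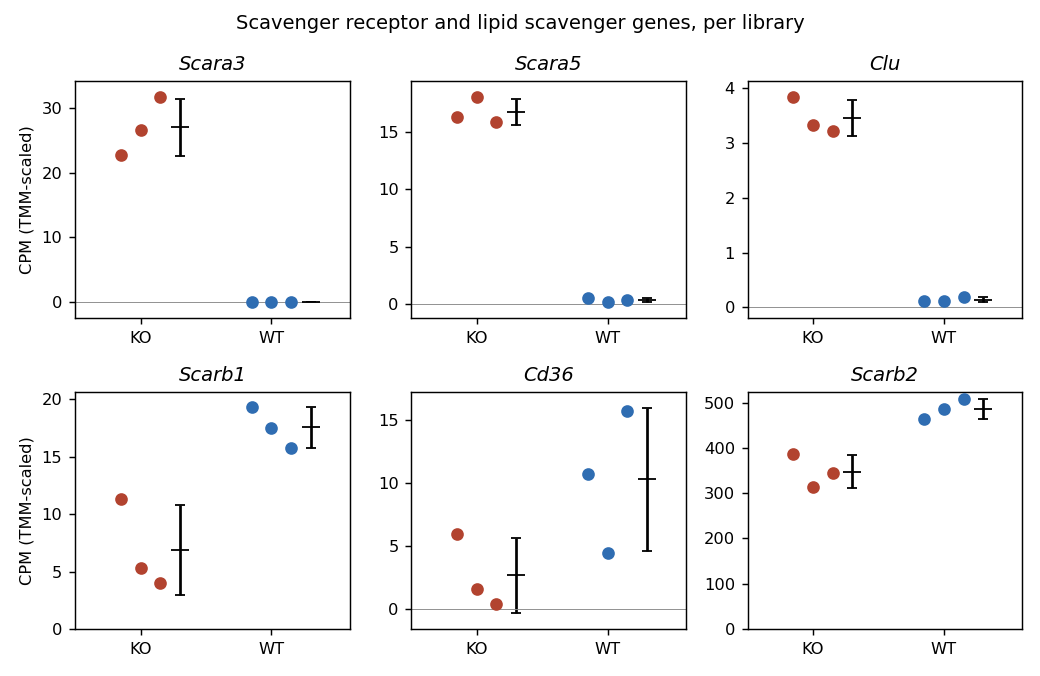
Level of each gene in each library, in TMM-scaled CPM on a linear axis that differs between panels, with red points for KO1 to KO3 and blue points for WT1 to WT3 from left to right. The bar beside the points is the mean with its SD (n = 3). *Scara3*, *Scara5* and *Clu* sit at or near 0 in WT, while *Cd36* is the one gene whose genotypes overlap.

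Levels of different genes were set side by side in TPM. In WT the order was *Scarb2* (69.8 ± 2.72 TPM, SD, n = 3), *Scarb1* (5.05 ± 0.702), *Cd36* (4.004 ± 2.34), *Scara5* (0.0661 ± 0.0330), *Clu* (0.0620 ± 0.00904) and *Scara3*, which had no reads. The ranges of *Scarb1* and *Cd36* overlapped, as did those of *Scara5* and *Clu*, and both neighbours changed places when a single library was left out (WT2 and WT1, respectively). In KO the order was *Scarb2* (50.02 ± 6.45 TPM), *Scara3* (5.52 ± 1.58), *Scara5* (2.98 ± 0.329), *Scarb1* (1.88 ± 0.914), *Clu* (1.32 ± 0.202) and *Cd36* (1.07 ± 1.20). *Scara3* was last of the 6 in WT and next to *Scarb2* in KO, and its KO libraries lay above all those of *Scara5*. From *Scara5* down each KO gene overlapped the next, and *Cd36* stood above *Clu* when KO3 was left out. *Scarb2* had the highest TPM of the 6 in every library.

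*Scara3* (ENSMUSG00000034463, chr14:65919395-65953744, minus strand, GRCm38) was the clearest case of a gene read in a single genotype. It had 812, 1163 and 1297 counts in KO1 to KO3 and 0 counts in each WT library. In CPM this was 22.7, 26.6 and 31.7 in KO, a mean of 27.0 ± 4.48 (SD, n = 3). A count of 0 allows up to 3 counts, which is 0.0863 CPM on average over the WT libraries and covers counting error only. Against that limit, taken per library, the KO mean was at least 313-fold higher, and its lowest KO library was at least 249-fold above the highest WT limit. Of the 46078 genes listed, 4 had at most 3 counts in every WT library and at least 100 in every KO library, *Scara3* among them. Its TPM were 4.19, 5.10 and 7.26 in KO and 0 in WT.

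*Scara5* (ENSMUSG00000022032, chr14:65666403-65764826, plus strand) was low in WT rather than unread. WT1, WT2 and WT3 had 20, 8 and 13 counts, and KO1, KO2 and KO3 had 581, 786 and 651. The KO libraries stood at 16.3, 18.0 and 15.9 CPM, a mean of 16.7 ± 1.13 (SD, n = 3). The WT libraries stood at 0.578, 0.244 and 0.3504 CPM, a mean of 0.391 ± 0.171. The lowest KO library was 27.5-fold above the highest WT library, and the means differed 42.8-fold. The fitted log2 fold change was 5.40 (SE 0.31), and 41 tested genes had a larger one. Among its KO libraries the highest was 1.13 times the lowest, the narrowest spread of the 6 genes in KO.

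*Clu* (ENSMUSG00000022037, chr14:65968483-65981548, plus strand) followed the same split at a lower level. The KO libraries had 137, 145 and 132 counts and the WT libraries 4, 4 and 7. In CPM the KO libraries stood at 3.83, 3.32 and 3.22 (mean 3.46 ± 0.328, SD, n = 3), and the WT libraries at 0.116, 0.122 and 0.189 (mean 0.142 ± 0.0405). Every KO library was at least 17.1 times the highest WT library, and the means differed 24.3-fold. The fitted log2 fold change was 4.56 (SE 0.35), with 68 tested genes above it. The WT counts are only just above the 3 counts that a 0 allows, so the size of the difference in *Clu* rests on few reads.

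In the 3 genes on chromosome 14 the KO libraries differed little beside their distance from WT, the highest being 1.39 times the lowest in *Scara3*, 1.13 times in *Scara5* and 1.19 times in *Clu*, against 1.24 times in *Scarb2* on chromosome 5. Relative to the WT mean on the log2 scale of CPM (with a prior count of 2), *Scara3* stood 8.74, 8.97 and 9.22 higher in KO1, KO2 and KO3. *Scara5* stood 5.27, 5.41 and 5.24 higher and *Clu* 4.33, 4.13 and 4.09 higher. Over the 6 libraries, Pearson's r of log2 CPM was 0.992 between *Scara3* and *Scara5*, 0.995 between *Scara3* and *Clu* and 0.987 between *Scara5* and *Clu*, a description in which all points share the split between the genotypes. *Scara5* is known as a gene of fibro-adipogenic progenitors, the connective tissue precursors of muscle, so their markers are given beside it. Of 6 such markers, 5 were tested and 4 were higher in KO, where 12.1% of all tested genes were: *Ly6a* (log2 fold change 2.76, SE 0.32, adjusted p = 0.00236), *Pi16* (2.45, SE 0.53, adjusted p = 0.0171), *Cd34* (1.74, SE 0.33, adjusted p = 0.0107) and *Pdgfra* (1.17, SE 0.29, adjusted p = 0.0257, all from edgeR's quasi-likelihood test). Only the call of *Ly6a* held with each library left out, and the highest adjusted p was 0.08004 for *Pi16* and 0.0599 for *Cd34*, both lost without WT1 or WT3, and 0.109 for *Pdgfra*, lost without KO3 or any of the WT libraries. *Dcn* did not pass (1.54, SE 0.94, adjusted p = 0.259), and *Dpp4* had at most 12 counts in any library and was not tested. The summed level of the 6 markers was 328, 323 and 151 CPM in KO and 65.8, 79.3 and 73.0 CPM in WT. Among the KO libraries it was lowest in KO3, where *Scara3* was highest in CPM and TPM, and where *Scara5* and *Clu* were lowest in CPM by small gaps but highest in TPM (2.61, 3.10 and 3.23 TPM for *Scara5* and 1.29, 1.14 and 1.54 TPM for *Clu* in KO1, KO2 and KO3). This shift was not particular to them. *Elp3* and *Trim35*, which did not pass, were also highest of the KO libraries in KO3 in TPM but not in CPM. *Trim35* stood at 345, 320 and 339 CPM and at 58.1, 57.0 and 72.2 TPM in KO1, KO2 and KO3. The part of such cells in the result was not tested, and in bulk RNA a larger share of cells of a type and more RNA per cell cannot be told apart.

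**Figure D2:**
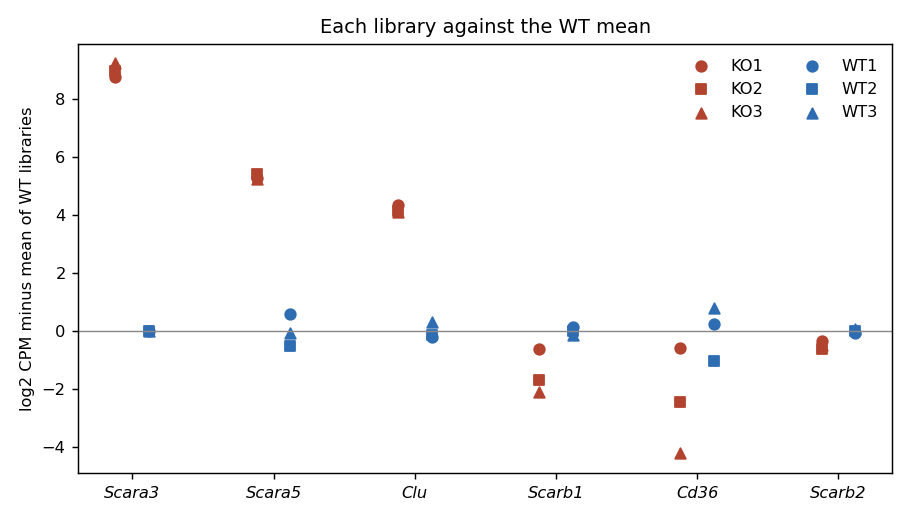
Log2 CPM of each library minus the mean of the WT libraries for the 6 genes, with red symbols for KO and blue symbols for WT and a symbol shape for each library. KO1 to KO3 lie together for *Scara3*, *Scara5*, *Clu* and *Scarb2* and spread apart for *Scarb1* and *Cd36*, where KO1 is closest to WT.

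The position of the 3 genes raises the question of whether the rest of the neighbourhood differed too. *Scara5* ends 154.6 kb before *Scara3* begins, and *Clu* begins 14.7 kb beyond *Scara3*. Of 34 other genes listed within 1 Mb of the span that holds the 3 genes (chr14:64666403-66981548), 2 had no counts and 16 were tested. In KO, 5 of the 16 were higher and 0 lower at an adjusted p of 0.05, or 31.2% called against 22.7% of all tested genes. At an unadjusted p under 0.05, 9 of the 16 were higher and 0 lower (56.2%, against 39% of all tested genes in either direction), and DESeq2 also called 0 lower. The median log2 fold change of the 16 was 0.58, against 0.03 over all tested genes, 14 of the 16 had a fold change above 0, and 10 of the 16 did not overlap between genotypes (62.5%, against 44.3% of all tested genes). KO1 had a median of 0.31 over the 16 genes relative to WT, KO2 one of 0.71 and KO3 one of 0.63, so the libraries with the larger neighbourhood medians were KO2 and KO3.

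Past *Clu*, the next tested gene was *Ephx2*, a hydrolase of epoxides of fatty acids, with 30, 260 and 49 counts in KO and 3, 0 and 3 counts in WT (log2 fold change 5.47, SE 1.07, adjusted p = 0.0121, edgeR's quasi-likelihood test). Its call was lost without WT1 or WT3 (highest adjusted p = 0.0576), and it differed from *Scara3*, *Scara5* and *Clu* in being far higher in KO2 than in the other KO libraries. *Ptk2b*, a focal adhesion kinase relative, stood at 28.3, 17.8 and 20.8 CPM in KO and 8.59, 6.16 and 8.27 CPM in WT (1.54, SE 0.23, adjusted p = 0.00502). *Dpysl2*, a regulator of microtubules, stood at 53.5, 87.0 and 69.0 CPM in KO and 30.9, 31.6 and 28.0 CPM in WT (1.21, SE 0.18, adjusted p = 0.00542). The calls of *Ptk2b* and *Dpysl2* held with each library left out. *Trim35*, between them, did not pass (−0.17, SE 0.14, adjusted p = 0.398).

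On the side of *Scara5*, the Wnt receptor *Fzd3* (log2 fold change 1.63, SE 0.43, adjusted p = 0.0320, edgeR's quasi-likelihood test) and the F-box gene *Fbxo16* (2.91, SE 0.68, adjusted p = 0.0222) were higher in KO. Both were highest in KO1, at 21.4 CPM against 6.94 and 7.74 for *Fzd3* and 4.76 CPM against 1.37 and 0.854 for *Fbxo16*. Both calls were lost when any of the WT libraries was left out, with a highest adjusted p of 0.119 for *Fzd3* and 0.0875 for *Fbxo16*. Among the alternatives, the log2 fold change fell as low as 0.76 for *Fzd3* and 1.85 for *Fbxo16*. Closer to *Scara5*, *Zfp395* (0.66, SE 0.43, adjusted p = 0.288) and *Elp3* (−0.07, SE 0.12, adjusted p = 0.726) did not pass. Between *Scara5* and *Scara3*, 3 genes were tested and 0 were called by edgeR: the mitotic kinase *Pbk* (0.87, SE 0.37, adjusted p = 0.122), the cohesin acetyltransferase *Esco2* (1.13, SE 0.35, adjusted p = 0.0513) and *Ccdc25* (0.32, SE 0.17, adjusted p = 0.203). At an unadjusted p under 0.05, 2 of the 3 differed, DESeq2 and edgeR with a replicate block each called 1, and edgeR without the filter on low counts and edgeR without KO1 each called 2. Their fitted log2 fold changes were above 0 but smaller than those of *Scara5* and *Scara3* on either side. The 8 protein-coding neighbours that were not tested had at most 12 counts in any library (*Chrna2*). Without WT1 or WT3, 2 of the neighbouring genes were called, without WT2 3, and without KO1 7.

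**Figure D3:**
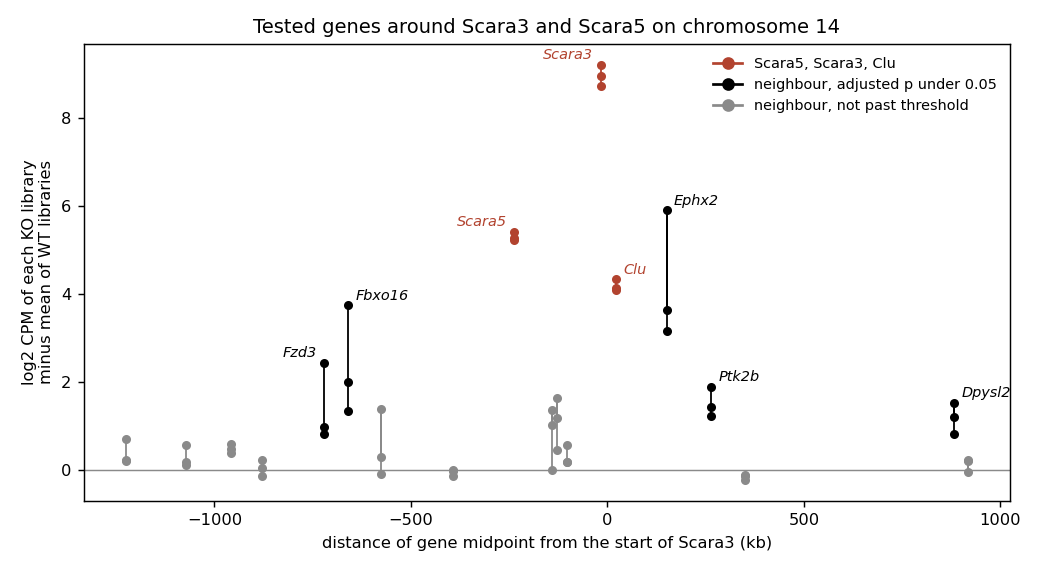
Tested genes around *Scara3* and *Scara5*, placed by the distance of their midpoint from the start of *Scara3* in kb, with each KO library's log2 CPM minus the WT mean as 3 joined points. *Scara3*, *Scara5* and *Clu* (red) stand above the genes between them, *Ephx2* beyond them reaches higher than *Scara5* and *Clu* in KO2, and neighbours past an adjusted p of 0.05 are drawn in black.

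*Scarb1* (ENSMUSG00000037936, chr5:125277087-125341094, minus strand) was lower in KO, and its KO libraries differed among themselves. The KO libraries had 404, 233 and 164 counts and the WT libraries 669, 575 and 586. The KO libraries stood at 11.3, 5.34 and 4.004 CPM (mean 6.88 ± 3.89, SD, n = 3), and the WT libraries at 19.3, 17.5 and 15.8 CPM (mean 17.6 ± 1.78). KO1 was 2.82 times KO3, while the lowest WT library was 1.40 times KO1, so the spread within KO was larger than the gap between the genotypes. The fitted log2 fold change was −1.35 (SE 0.36), and −1.91 without KO1. Its TPM were 2.93, 1.42 and 1.28 in KO and 5.63, 5.26 and 4.27 in WT, also without overlap.

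*Cd36* (ENSMUSG00000002944, chr5:17781690-17888801, minus strand) was the most variable of the 6 genes. The KO libraries had 215, 71 and 18 counts and the WT libraries 372, 146 and 583. The KO libraries stood at 6.02, 1.63 and 0.439 CPM (mean 2.69 ± 2.94, SD, n = 3) and the WT libraries at 10.8, 4.45 and 15.7 CPM (mean 10.3 ± 5.64). KO1 lay above WT2, and the highest library was 13.7 times the lowest in KO and 3.53 times the lowest in WT. The fitted log2 fold change was −1.94 (SE 0.83), and it was −3.31 without KO1, a change of more than 1.5 times.

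*Scarb2* (ENSMUSG00000029426, chr5:92441314-92506833, minus strand) differed least between the genotypes. Its KO libraries stood at 387, 313 and 344 CPM (mean 348 ± 37.2, SD, n = 3) and its WT libraries at 465, 486 and 509 CPM (mean 486 ± 22.03). All WT libraries lay above all KO libraries, the lowest WT library 1.20 times the highest KO library. The fitted log2 fold change was −0.48 (SE 0.15), and the WT mean was 1.40-fold the KO mean. In TPM the libraries stood at 50.5, 43.4 and 56.2 in KO and 68.0, 72.9 and 68.5 in WT.

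RefSeq promoter windows were matched for 2 of the 6 genes, *Cd36* and *Scarb2*, which happen to be the most variable and the most even of the class B genes, and both are shown. The 250 bases before the RefSeq start are printed 5′ to 3′ on the minus strand of GRCm38.p6, with each CG in capitals, at chr5:17835897-17836146 for *Cd36* and at chr5:92505658-92505907 for *Scarb2*, both inside the deposited span of the gene. On this strand the spans begin at their higher coordinate, 17888801 for *Cd36* and 92506833 for *Scarb2*, so the *Cd36* window lies much deeper inside its span. Whether these starts were the ones used in these cells was not tested.
Cd36: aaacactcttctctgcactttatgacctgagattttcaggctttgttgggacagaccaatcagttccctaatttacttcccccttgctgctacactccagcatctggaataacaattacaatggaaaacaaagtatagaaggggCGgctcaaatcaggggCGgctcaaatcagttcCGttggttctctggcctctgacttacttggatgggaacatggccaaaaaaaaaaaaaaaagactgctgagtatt
Scarb2: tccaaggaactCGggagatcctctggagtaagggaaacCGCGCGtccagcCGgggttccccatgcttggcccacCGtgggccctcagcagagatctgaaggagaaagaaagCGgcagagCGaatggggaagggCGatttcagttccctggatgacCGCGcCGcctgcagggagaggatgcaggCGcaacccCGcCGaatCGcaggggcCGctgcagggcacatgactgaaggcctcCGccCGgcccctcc
The *Cd36* window held 3 CG pairs and was 43.2% G or C, and 29.0% of 32851 promoter windows of this length held fewer CG pairs. The *Scarb2* window held 19 CG pairs and was 65.6% G or C, and 80.3% of windows held fewer. The median window held 6 CG pairs and was 52.4% G or C. Letter patterns were counted on both strands: CANNTG (the E box letters), GGGCGG (a GC box), CCAAT and TATAAA, found in 66.2%, 32.7%, 33.8% and 12.4% of all windows. *Cd36* held 1 CANNTG, 2 GGGCGG and 1 CCAAT, *Scarb2* held 1 CANNTG and 1 GGGCGG, and neither held TATAAA. These matches describe the letters only.

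*Scarb1* and *Cd36* were highest in KO1 and lowest in KO3 among the KO libraries, in CPM and in TPM. Relative to the WT mean of log2 CPM, *Scarb1* stood at −0.63, −1.70 and −2.11 in KO1, KO2 and KO3, and *Cd36* at −0.59, −2.45 and −4.22. *Scarb2* stood at −0.33, −0.63 and −0.50. In CPM, KO1 was nearest to WT in all 3 class B genes. In TPM KO3 was nearest for *Scarb2*, on a scale where KO3 was also the highest KO library for *Trim35* and *Elp3*. Pearson's r of log2 CPM over the 6 libraries was 0.911 between *Cd36* and *Scarb1*, 0.909 between *Scarb1* and *Scarb2* and 0.7997 between *Cd36* and *Scarb2*, given as a description. Beside these, the summed level of the 10 muscle markers was 21512, 9288 and 8421 CPM over the KO libraries and 17990, 14922 and 19244 CPM over the WT libraries. Within KO the sum had the same order as *Scarb1* and *Cd36*, and within WT the same order as *Cd36*. It did not follow *Scarb1* in WT, where WT3 was highest in the sum and lowest in *Scarb1*, and KO1 lay above every WT library in the sum but below every WT library in *Scarb1*. The median log2 fold change of the 10 markers was −0.37 and 2 of them passed in the main edgeR fit (20%, against 22.7% of all tested genes): *Myod1* (log2 fold change 0.99, SE 0.20, adjusted p = 0.0141) was higher and *Myf5* (−1.50, SE 0.39, adjusted p = 0.0303, edgeR's quasi-likelihood test) lower in KO. Both calls were lost without WT1 or WT3, and that of *Myf5* also without KO3 or WT2 (highest adjusted p = 0.0789 for *Myod1* and 0.0826 for *Myf5*). The sarcomere genes *Actc1* (−1.16, SE 0.43, adjusted p = 0.0890) and *Myh3* (−1.18, SE 0.51, adjusted p = 0.126) did not pass in the main edgeR fit but passed in DESeq2 (adjusted p = 0.0114 and 0.0198). They also passed in both limma fits and in edgeR without the filter on low counts (0.000102 and 0.000809) or without KO1 (0.00117 and 0.00145). Their log2 fold changes reached −1.86 and −2.04 among the alternatives. *Tnnt3* (−0.39, SE 0.51, adjusted p = 0.597), *Ckm* (−0.83, SE 0.41, adjusted p = 0.170), *Des* (−0.34, SE 0.33, adjusted p = 0.474) and *Acta1* (0.11, SE 0.44, adjusted p = 0.871) did not pass in the main fit. *Ckm* passed in edgeR without the filter on low counts (adjusted p = 0.00266). In edgeR without KO1, *Tnnt3* (adjusted p = 0.00983), *Ckm* (0.0262) and *Des* (0.0340) passed as well, all lower in KO. The calls of *Myod1* and *Myf5* held there, while *Acta1*, *Myog* and *Chrna1* did not pass. The part of the muscle program in the levels of *Scarb1* and *Cd36* was not tested.

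For each gene, the 3 tested genes with the most similar log2 CPM over the 6 libraries were found by Pearson's r, as a description. The split between the genotypes weighs on r, which does not depend on the size of a difference. *Scara3* was most like *Cpeb1* (r = 0.999), *B3gnt9* (0.998) and *Dchs2* (0.998). *Cpeb1*, an RNA-binding regulator of translation, stood at 12.5, 12.3 and 13.7 CPM in KO and 3.56, 3.72 and 3.80 CPM in WT, and so was far less different between genotypes than *Scara3*. *Scara5* was most like *Arap2*, *Rcor1* and *Dclre1b* (r of 0.998 to 0.999), of which *Arap2*, a regulator of small GTPases, was likewise near 0 in WT, with 8.93, 11.4 and 12.2 CPM in KO and at most 0.0868 CPM in WT. *Rcor1* differed little, at 37.0, 37.5 and 37.0 CPM in KO and 30.4, 28.8 and 28.8 CPM in WT. It did not pass (log2 fold change 0.34, SE 0.11, adjusted p = 0.0634, edgeR's quasi-likelihood test). *Clu* was most like *Dchs2*, *Fads6* and *Synj2bp* (r of 0.997 to 0.999). *Dchs2*, a giant cadherin named for both *Scara3* and *Clu*, stood at 9.07, 8.70 and 8.62 CPM in KO and 0.550, 0.518 and 0.647 CPM in WT. *Scarb1* was most like *Armc8*, *Myo1c* and *Cox18* (r of 0.997 to 0.999), and *Scarb2* most like *Gm8113*, *Pigl* and *Map1a* (r of 0.995 to 0.998). Of these, *Armc8*, *Cox18* and *Pigl* did not pass in the main edgeR fit, and *Gm8113* had at most 0.593 CPM in any library. *Cd36* was most like *Coa4*, *Arl6ip6* and *Pccb* (r of 0.994 to 0.997), none of which passed in the main edgeR fit. *Coa4* and *Pccb* encode mitochondrial proteins, and *Pccb*, a subunit of propionyl-CoA carboxylase, stood at 72.9, 57.0 and 46.5 CPM in KO and 80.5, 65.6 and 81.3 CPM in WT, the same order of libraries as *Cd36* within KO.

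Genes that work beside these receptors were examined in 7 lists, whose shares called stand against 22.7% of all tested genes, 12.1% higher and 10.6% lower. Of 18 other scavenger receptors, 12 were tested, 4 were higher in KO and 1 lower (41.7% called against 22.7% of all genes, median log2 fold change 0.95). *Colec12*, another class A receptor, stood at 41.3, 147 and 81.2 CPM in KO and 28.2, 28.7 and 30.8 CPM in WT (1.62, SE 0.39, adjusted p = 0.0249, edgeR's quasi-likelihood test). *Scarf2* (1.06, SE 0.17, adjusted p = 0.00592) and *Ssc5d* (1.11, SE 0.27, adjusted p = 0.0235) were higher, and the engulfment receptor *Megf10* was lower (−0.90, SE 0.20, adjusted p = 0.0181). The class A receptors of macrophages, *Msr1* and *Marco*, were not tested, with at most 20 and 2 counts in any library. Only *Scarf2* held with each library left out: *Megf10* was lost without WT3 (adjusted p = 0.0672), *Colec12* without KO3 or any WT library (highest 0.0999) and *Ssc5d* without KO2, KO3, WT1 or WT3 (highest 0.0987).

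Of 28 genes of the LDL receptor family and of cholesterol handling, 26 were tested, 5 were higher and 2 lower (26.9% called against 22.7% of all genes, median −0.04). *Abcg1*, a cholesterol exporter, had 13, 229 and 161 counts in KO and 1, 0 and 0 in WT, a ratio of 350 in summed counts per library size (95% exact interval 62.4 to 13850, counting error only). Its adjusted p was 0.00773 (edgeR's quasi-likelihood test) and 0.0528 without WT1. WT1 held the only WT read of *Abcg1*, so the ratio has no finite value without that library. *Lrp4*, a receptor of the neuromuscular synapse, was higher (1.03, SE 0.17, adjusted p = 0.00738). *Sort1*, a sorting receptor between the Golgi and lysosomes, stood at 59.1, 22.7 and 23.4 CPM in KO and 242, 182 and 247 CPM in WT (−2.68, SE 0.39, adjusted p = 0.00478). The calls of *Lrp4* and *Sort1* held with each library left out. The clusterin receptors *Vldlr* (−0.29, SE 0.24, adjusted p = 0.423) and *Lrp8* (−0.50, SE 0.27, adjusted p = 0.209) did not pass.

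Of 36 genes of fatty acid uptake, storage and oxidation, 32 were tested, 5 were higher and 6 lower (34.4% called against 22.7% of all genes, median −0.00). *Angptl4*, an inhibitor of lipoprotein lipase, stood at 73.2, 30.2 and 26.4 CPM in KO and 0.752, 0.518 and 0.593 CPM in WT (6.11, SE 0.49, adjusted p = 0.000640, edgeR's quasi-likelihood test). *Cpt1a*, which passes fatty acids into mitochondria, was higher (1.63, SE 0.22, adjusted p = 0.00347), as was *Cav1*, the coat protein of caveolae (1.59, SE 0.25, adjusted p = 0.00594). *Ppargc1a*, a coactivator of mitochondrial genes, stood at 2.27, 1.40 and 1.03 CPM in KO and 37.6, 21.4 and 37.9 CPM in WT (−4.37, SE 0.36, adjusted p = 0.000728). It had the same order of libraries within KO as *Cd36*, and WT2 was its lowest WT library too. *Fabp5*, a fatty acid carrier, was lower (−1.55, SE 0.22, adjusted p = 0.00480), as was *Pdk4*, a brake on glucose oxidation (−1.51, SE 0.34, adjusted p = 0.0188). The call of *Pdk4* was lost without KO3, WT1 or WT3 (highest 0.0805), and those of the other 5 held with each library left out.

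Of 24 lysosomal genes, all were tested, 2 were higher and 3 lower (20.8% called against 22.7% of all genes, median −0.16). The protease *Ctsa* was higher (0.57, SE 0.15, adjusted p = 0.0302, edgeR's quasi-likelihood test), and *Sort1*, *Hexa* (−1.16, SE 0.24, adjusted p = 0.0158) and the cholesterol transporter *Npc1* (−0.75, SE 0.17, adjusted p = 0.0214) were lower. Of these, *Sort1* alone held with each library left out: *Ctsa* was lost without KO2 or any WT library (highest adjusted p = 0.130), *Npc1* without KO2, WT1 or WT3 (0.0780) and *Hexa* without WT1 or WT3 (0.0728).

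Of 19 genes of iron handling, 17 were tested, 1 was higher and 3 lower (23.5% called against 22.7% of all genes, median 0.06). The transferrin receptor *Tfrc* stood at 115, 73.6 and 55.0 CPM in KO and 258, 198 and 338 CPM in WT (−1.71, SE 0.30, adjusted p = 0.00870, edgeR's quasi-likelihood test). *Hfe*, a regulator of iron uptake, was lower (−1.80, SE 0.24, adjusted p = 0.00366), as was the iron exporter *Slc40a1* (−1.44, SE 0.29, adjusted p = 0.0137, and 0.0541 without WT1). *Tfr2*, a second transferrin receptor, was higher (1.71, SE 0.41, adjusted p = 0.0242), a call lost without KO3 or any WT library (highest 0.0947). The ferritin subunits, whose protein *Scara5* binds, did not pass in edgeR, *Fth1* at −0.75 (SE 0.30, adjusted p = 0.103) and *Ftl1* at 0.22 (SE 0.21, adjusted p = 0.476). *Fth1* did not overlap between the genotypes, at 400 to 854 CPM in KO and 973 to 1298 CPM in WT, and passed in DESeq2 (adjusted p = 0.0362), in edgeR without the filter on low counts (0.00998) and in limma on log2(TPM + 0.1) (0.0499) and log2(TPM + 1) (0.0492).

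Of 22 antioxidant genes, all were tested, 7 were higher and 1 lower (36.4% called against 22.7% of all genes, median 0.03). *Nqo1*, a quinone reductase, stood at 7.28, 9.57 and 6.40 CPM in KO and 2.69, 1.19 and 2.40 CPM in WT (1.89, SE 0.34, adjusted p = 0.00956, edgeR's quasi-likelihood test), and alone in this list held with each library left out. The glutathione transferases *Mgst1* (1.73, SE 0.51, adjusted p = 0.0444) and *Gstm1* (1.39, SE 0.36, adjusted p = 0.0299) were higher, and the peroxidase *Prdx6* was lower (−0.70, SE 0.18, adjusted p = 0.0279). *Gstm1* and *Prdx6* were lost without KO2, KO3 or any WT library (highest 0.101 and 0.112) and *Mgst1* without KO2 or any WT library (0.159), and without WT3 1 of the list was called.

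Of 21 extracellular chaperones and complement genes, the company of clusterin outside the cell, 17 were tested, 3 were higher and 4 lower (41.2% called against 22.7% of all genes, median 0.15). The complement proteases *C1ra* (1.25, SE 0.17, adjusted p = 0.00366) and *C1s1* (1.44, SE 0.33, adjusted p = 0.0198, edgeR's quasi-likelihood test) were higher, as was their inhibitor *Serping1* (2.78, SE 0.72, adjusted p = 0.0303). The complement inhibitor *Cd59a* (−1.38, SE 0.15, adjusted p = 0.00205), *C1qbp* (−0.94, SE 0.14, adjusted p = 0.00532) and the chaperone of the endoplasmic reticulum *Hspa5* (−1.15, SE 0.29, adjusted p = 0.0268) were lower. The calls of *C1ra*, *Cd59a* and *C1qbp* held with each library left out, while those of *Serping1* (lost without KO1, WT1 or WT3, highest 0.124), *C1s1* (KO3 or any WT library, 0.0801) and *Hspa5* (KO2, KO3, WT1 or WT2, 0.109) did not.

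**Figure D4:**
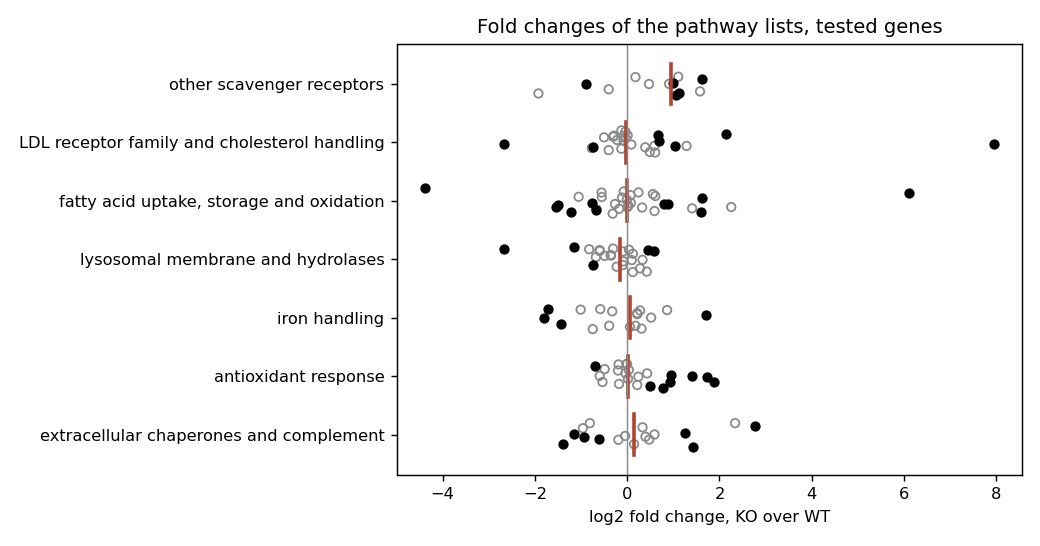
Fitted log2 fold change of KO over WT for every tested gene of the 7 lists, with filled points for genes past an adjusted p of 0.05 (edgeR's quasi-likelihood test), open points for the others and a red line at the median of the list. Most medians lie near 0, and called genes stand on both sides of it in each list.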

How the data were processed

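Total RNA without its ribosomal RNA gave 3 KO and 3 WT libraries. The authors aligned reads with STAR and deposited counts per gene from featureCounts, with no normalization. The authors also deposited StringTie TPM values per library, and TPM values sharing an identifier were summed. Aligner versions and the use of strand are not given in the sources used here. The methods name GRCm39 and the submitters' processing notes mm9, but 95.7% of deposited gene starts lay within 1000 bases of GENCODE M21, so positions are GRCm38. All columns of counts were used.

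Counts were scaled (TMM), filtered with filterByExpr, leaving 14828 of 46078 genes, and tested two-sided with edgeR's quasi-likelihood test (R 4.3.3, edgeR 4.0.16), with Benjamini-Hochberg adjustment over all genes tested and a threshold of 0.05. The fit was also run on simulated data, whose outcome is not given here. Alternatives used DESeq2 1.42.0, its size factors, no filter on low counts, limma 3.58.1 on log2(TPM + 1) and log2(TPM + 0.1), a replicate block, and each library left out. The 6 genes and the 7 lists were chosen with earlier results of these data known. Named beside them were *Hnrnpa2b1*, close relatives and partners, up to 3 called genes per list and direction, tested genes among the 4 nearest to *Scara3* and *Scara5* on each side, called genes within 1 Mb, and the 3 most similar genes. Some genes that this rule names are not reported here.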

Additional observations from a re-analysis of the deposited data

How the results depend on the processing

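The 6 genes' log2 fold changes kept their sign under all the alternatives run, and so did those of every gene given as past the threshold in KO against WT. The signs of *Vldlr*, *Dcn*, *Pparg*, *Acta1*, *Myog*, *Chrna1* and *Itgam*, which did not pass, changed in some. Since *Scara3* had no read in WT, its reads do not fix the size of its fitted log2 fold change (12.98), which differed between methods. It was 12.29 in DESeq2, 5.77 on log2(TPM + 0.1) and 2.68 on log2(TPM + 1), and 12.83 to 13.10 with a library left out. On the TPM scales, whose pseudocounts exceed the mean WT levels, *Scara5* stood at 4.23 and 1.90 and *Clu* at 3.13 and 1.12. With a library left out, *Scarb1* ranged from −1.91 to −1.08, *Clu* from 4.43 to 4.80 and *Cd36* from −3.31 to −1.44. The count of changed genes (3361) ranged from 933 without WT1 to 4712 without KO1, was 1288 without WT3, 2088 without KO3 and 2100 without WT2, and 4149 in DESeq2. With a library left out, the count called ranged from 1 to 7 for other scavenger receptors, 2 to 7 for cholesterol handling, 8 to 17 for fatty acids, 1 to 11 for lysosomal genes, 2 to 6 for iron, 1 to 9 for antioxidant genes, 3 to 7 for chaperones and complement, and 2 to 7 for neighbours on chromosome 14. Without a filter on low counts it was 17 for fatty acids, 8 for lysosomal genes and 9 for iron, DESeq2 called 7 iron genes, and log2(TPM + 0.1) called 3 other scavenger receptors and 3 neighbours, the latter 2 on log2(TPM + 1). The cause was not tested, and DESeq2 size factors in edgeR moved none of the counts by over 1.5 times.

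Whether the replicate numbers pair the libraries could not be decided. Deviations from the genotype mean correlated at 0.14, −0.12 and 0.00 between libraries of the same number. Between libraries of different numbers they correlated at −0.34 (KO3 with WT1) to 0.28 (KO3 with WT2). The deviations of the 3 libraries of a genotype sum to 0, which ties these correlations to each other. With a replicate block, 2520 genes were called in place of 3361 and 4 antioxidant genes in place of 8. Genes with few WT reads, *Scara3* and *Clu* among them, are limited by depth.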
